A study of Mus musculus with 18 samples.

Results

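The 10 genes described here encode inflammatory cytokines and chemokines, together with the inducible prostaglandin enzyme: Il1a, Il1b, Il6, Tnf, Cxcl1, Cxcl2, Ccl2, Ccl3, Ccl4 and Ptgs2. They were chosen by name, as the rows whose NCBI gene number carries one of these symbols, and 10 of 10 were found among the 22657 genes of the table. Their expression was followed in mouse testes kept in organ culture, in 18 samples that form 6 groups of 3. In A0, A10 and A50 the testes came from ICR mice that received no busulfan and were cultured with alginate oligosaccharides (AOS, short sugar chains made from the alginate of brown algae) at 0, 10 or 50 µg/mL. In B0, BA10 and BA50 they came from ICR mice injected once with busulfan, an alkylating drug that is toxic to dividing germ cells, at 40 µg per g body weight, and were kept at the same 3 AOS concentrations. All mice were 3 weeks old at the time of the injection, the testes were removed 2 weeks later, and all cultures ran for 48 h in medium with 10% serum. The values are FPKM, that is, read fragments scaled by transcript length and by the size of the library, so levels can be compared between genes. The methods give 6 testes for each treatment and 3 repeats, without saying whether a sample is a separate repeat, animal or pool, and the number of fragments is not given, so p-values measure the spread between these samples, which may be technical.

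Interleukin-1 (the products of Il1a and Il1b) and tumor necrosis factor (Tnf) are alarm cytokines that act through NF-κB, and stromal cells answer them by transcribing Il6, Cxcl1, Cxcl2, Ccl2 and Ptgs2. CXC chemokines such as Cxcl1 and Cxcl2 attract neutrophils, while the CC chemokines Ccl2, Ccl3 and Ccl4 attract monocytes and other leukocytes. In the testis, resident macrophages, Sertoli cells, Leydig cells and peritubular cells can all make some of these factors, and interleukin-1α in particular is made by Sertoli cells.

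Promoter sequence was read for the genes whose patterns are set against each other below: the chemokine pair Cxcl1 and Cxcl2, and the pair Il6 and Ptgs2. RefSeq promoters (GRCm38.p6, 250 bases before to 50 after the transcription start) were found for 8 of the 10 genes (all but Ccl2 and Ccl4). Each was searched on both strands for the consensus κB motif, the letters to which NF-κB dimers bind, and for the motif TTGCNNAA, which resembles the C/EBP binding motif. The following stretches show the 150 bases before the start, 5′ to 3′ on the strand of the gene, with κB matches in capitals in Cxcl1 and Cxcl2, the TTGCNNAA match in capitals in Ptgs2, and both kinds in capitals in Il6 (TTGCNNAA on the opposite strand first, then κB).
Cxcl1 (chr5:90891095-90891244, plus strand): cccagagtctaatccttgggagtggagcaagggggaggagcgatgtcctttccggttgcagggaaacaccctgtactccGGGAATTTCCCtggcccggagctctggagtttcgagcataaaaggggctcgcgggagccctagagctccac
Cxcl2 (chr5:90903749-90903898, plus strand): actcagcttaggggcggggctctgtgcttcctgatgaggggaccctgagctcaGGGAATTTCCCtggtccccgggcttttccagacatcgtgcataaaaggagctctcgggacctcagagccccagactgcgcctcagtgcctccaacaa
Il6 (chr5:30012964-30013113, plus strand): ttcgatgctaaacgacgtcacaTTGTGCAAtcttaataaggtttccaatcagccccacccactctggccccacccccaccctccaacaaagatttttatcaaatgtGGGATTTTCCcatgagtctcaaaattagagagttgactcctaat
Ptgs2 (chr1:150099881-150100030, plus strand): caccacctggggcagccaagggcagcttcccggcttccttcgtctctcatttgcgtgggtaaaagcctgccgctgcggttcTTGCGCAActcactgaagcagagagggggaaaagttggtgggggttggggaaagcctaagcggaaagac

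The κB consensus matched in 3 of the 8 promoters (Cxcl1, Cxcl2 and Il6) and in 4.51% of all 32851 promoters of this length. In Cxcl1 and Cxcl2 the match was present on both strands, 1 base apart, which is why 11 letters are in capitals. Its 10 plus-strand bases were identical in both genes, whereas 29 of 50 bases were identical when 20 bases on either side were added. TTGCNNAA matched in 2 of 8 promoters (Il6 and Ptgs2) and in 10.8% of all promoters. The AP-1 motif TGANTCA matched in 2 of 8 (Il1a and Il6) against 7.81% of all, and TATAAA, searched on the strand of the gene, in 3 of 8 (Il1a, Il1b and Tnf) against 8.32%. A match describes letters and not a bound site.

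The levels of the 10 genes spanned more than 2 orders of magnitude. Averaged over the 18 samples, Cxcl1 (186 FPKM) and Ccl2 (154 FPKM) were higher than 98.4% and 97.9% of the genes in the table, and Ptgs2 followed with 52.5 FPKM. Il6 (16.5 FPKM), Cxcl2 (14.7 FPKM) and Ccl3 (14.4 FPKM) formed a middle group, in which the order of the means lies within the spread between samples. Ccl4 averaged 6.41 FPKM and Il1a 4.87 FPKM. Il1b and Tnf were hardly expressed, with means of 0.473 and 0.565 FPKM.

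**Figure D1:**
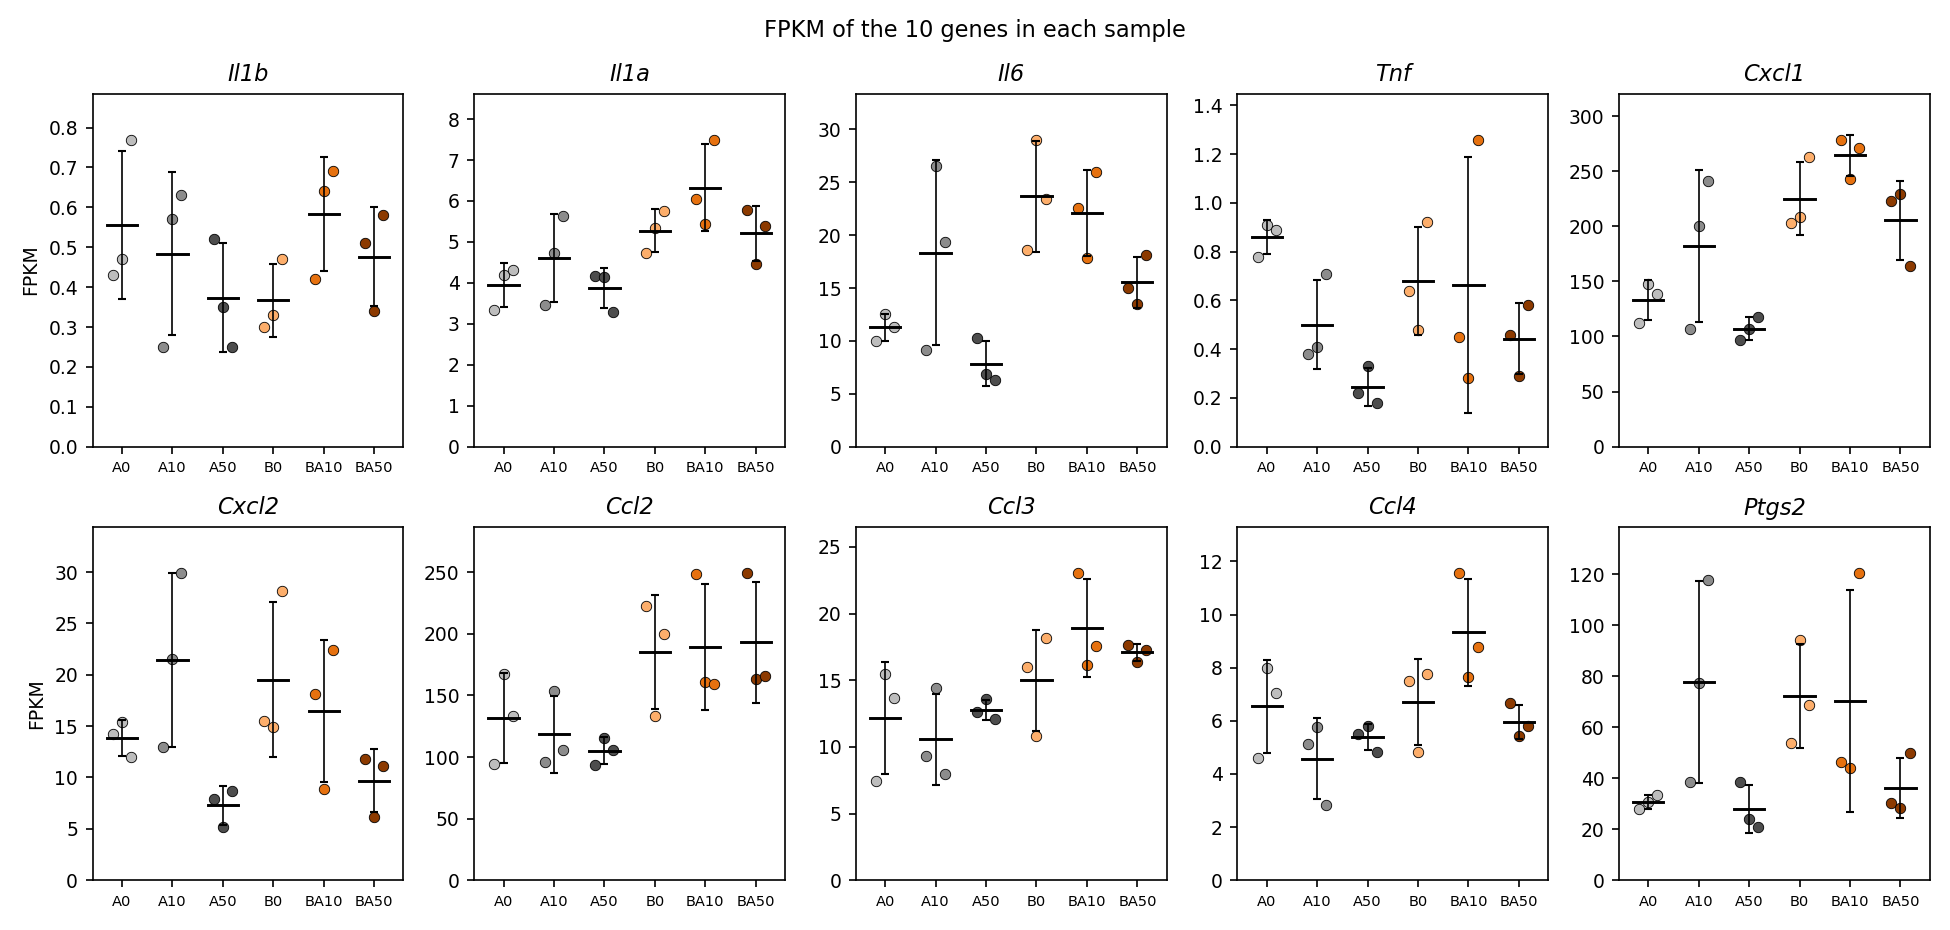
FPKM (linear axes from 0) of the 10 genes in each of the 6 groups; points are the 3 samples of a group, horizontal lines group means and bars ± 1 SD. The B0, BA10 and BA50 points of Cxcl1 lie between 164 and 279 FPKM, above those of the A group with the same AOS concentration, while Il1b stays below 0.8 FPKM in every sample.

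The 18 libraries had FPKM sums between 463970 and 511274. Replicates of a group correlated with r between 0.929 and 0.988 across genes on the log2(FPKM + 1) scale, and A10 replicate 3 stood furthest from its group (r of 0.929 and 0.941). The germ cell marker Sycp3, of the meiotic chromosome axis, was 108.88 to 137.18 FPKM without busulfan and 8.25 to 14.82 FPKM with it. The 12 macrophage markers were all detected, and their summed level ranged from 323 to 933 FPKM without busulfan and from 352 to 1026 FPKM with it, lowest in A10 replicate 3 and BA50 replicate 2. Fat cell genes such as Cfd and simple epithelial keratins such as Krt7 were highest in the 3 B0 samples, and the summed fat cell level was 37.1 to 237 FPKM in B0 against 3.92 to 6.37 FPKM in A0. In bulk tissue, more cells of a type and more RNA per cell cannot be told apart.

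The first question was how the genes differ between testes of busulfan-treated and untreated mice. Over the 3 AOS concentrations, Cxcl1, Il6, Ccl2, Ccl3, Il1a and Ccl4 were higher with busulfan, by 1.28-fold to 1.70-fold on the log2(FPKM + 1) scale. Cxcl1 and Il6 rose most. Neither Ptgs2 nor Cxcl2 passed the test, and Il1b and Tnf were too low to be tested. All 18 samples entered a single limma fit of log2(FPKM + 1), which covered the 15790 genes that reached 1 FPKM in 3 or more samples, and a gene was called at a Benjamini-Hochberg adjusted p under 0.05. Of the 8 genes tested, 6 were called higher and 0 lower. This stands beside 13.3% of all genes tested called higher and 38.1% called in either direction. The median difference of the 8 genes was 0.48 on the log2 scale, and that of all genes tested was 0.01. None of the 8 met the stricter limits of the study's methods, an adjusted p of at most 0.001 with a log2 change of at least 1, which 3.61% of genes met.

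Interleukin-1α is released by damaged cells and signals through the interleukin-1 receptor. Il1a was listed at 3.34, 4.20 and 4.31 FPKM in A0, at 3.47, 4.72 and 5.63 in A10, and at 4.17, 4.14 and 3.30 in A50. With busulfan the values were 4.72, 5.35 and 5.75 FPKM in B0, 6.04, 5.44 and 7.50 in BA10, and 5.77, 4.47 and 5.39 in BA50. All busulfan samples lay above all samples without busulfan at 0 and at 50 µg/mL AOS, whereas at 10 µg/mL the highest A10 value overlapped the BA10 values. The difference was 0.36 ± 0.09 (SE, log2 scale, 9 samples against 9), with an adjusted p from limma of 0.00467 and an exact permutation p of 0.0005 when samples were exchanged within each AOS concentration (two-sided, 8000 divisions). Il1b, which encodes the secreted interleukin-1β of activated macrophages, was 0.25 to 0.77 FPKM without busulfan and 0.30 to 0.69 FPKM with it, and the 2 ranges overlapped almost fully (exact permutation p = 0.922).

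Interleukin-6 drives acute-phase and JAK/STAT3 signaling. Il6 was 9.97, 12.55 and 11.36 FPKM in A0, and 18.55, 29.04 and 23.40 FPKM in B0, so that every B0 value exceeded every A0 value. In A10 the samples were uneven, with 9.13, 26.58 and 19.35 FPKM, and they overlapped those of BA10 (22.55, 17.84 and 25.97 FPKM). At 50 µg/mL AOS the groups were again apart, with 10.30, 6.90 and 6.33 FPKM in A50 and 14.98, 13.47 and 18.16 FPKM in BA50. The difference over the 3 concentrations was 0.76 ± 0.17 (adjusted p from limma 0.00242; exact permutation p = 0.0025, two-sided). Tnf, the gene of the main macrophage alarm cytokine, was 0.18 to 0.91 FPKM without busulfan and 0.28 to 1.26 FPKM with it (exact permutation p = 0.615). The highest Tnf value belonged to BA10 replicate 3, and the other 8 busulfan samples were not above 0.92 FPKM.

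The CXC chemokines Cxcl1 and Cxcl2 are neighboring paralogs that share the receptor CXCR2. Cxcl1 was 112.61, 147.74 and 139.01 FPKM in A0 and 203.28, 208.63 and 263.32 FPKM in B0. The corresponding values were 106.40, 199.86 and 240.93 FPKM in A10 and 278.72, 243.34 and 270.80 FPKM in BA10. They were 96.48, 106.86 and 117.72 FPKM in A50 and 223.07, 229.29 and 163.85 FPKM in BA50. The busulfan samples lay above those without busulfan at each of the 3 AOS concentrations. Cxcl1 differed by 0.76 ± 0.14 (adjusted p from limma 0.000395), and its exact permutation p of 0.00025 (two-sided) is the smallest that 8000 divisions can give. Cxcl2, whose printed promoter holds the same κB letters, differed by only 0.13 ± 0.21 (adjusted p from limma 0.648). Its values without busulfan ranged from 5.16 to 29.90 FPKM and those with busulfan from 6.15 to 28.20 FPKM, and the difference between the changes of both chemokines was not tested. How reads shared by such paralogs were divided is not stated.

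Among the CC chemokines, Ccl2 encodes the main monocyte attractant MCP-1. Ccl2 was 94.57, 167.70 and 133.23 FPKM in A0, 95.83, 153.82 and 105.43 in A10, and 93.88, 115.86 and 105.79 in A50. With busulfan it was 222.99, 133.35 and 199.73 FPKM in B0, 248.65, 160.57 and 159.63 in BA10, and 249.41, 163.66 and 166.06 in BA50. The 2 groups overlapped at 0 µg/mL AOS only, through B0 replicate 2. The difference was 0.67 ± 0.15 (adjusted p from limma 0.0028; exact permutation p = 0.001, two-sided). Ccl3 and Ccl4 encode the macrophage inflammatory proteins MIP-1α and MIP-1β. Ccl3 ranged from 7.46 to 15.47 FPKM without busulfan and from 10.80 to 23.04 FPKM with it, and 8 of the 9 busulfan samples exceeded every sample without busulfan, the exception being B0 replicate 2. Ccl3 differed by 0.50 ± 0.14 (adjusted p from limma 0.0123; exact permutation p = 0.0055, two-sided).

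Ccl4 had the highest adjusted p of the 6. It ranged from 2.84 FPKM (A10 replicate 3) to 7.98 FPKM without busulfan and from 4.83 to 11.56 FPKM (BA10 replicate 1) with it, and the groups were apart only at 10 µg/mL AOS. The difference was 0.36 ± 0.13, with an adjusted p from limma of 0.0445 and an exact permutation p of 0.043 (two-sided). The call was lost in 12 of the 18 fits that left out 1 library, namely A0 replicate 1 or 3, A10 replicate 3, any A50 replicate, or replicate 1 or 3 of B0, BA10 or BA50, with adjusted p from 0.0537 to 0.0923. In these fits the difference stayed between 0.28 and 0.38. The other 5 calls were kept in all 18 of these fits. That of Ccl4 was also lost with the replicate block, in which the replicate number enters the fit as a term (0.06), and without the filter (0.062). In GENCODE, Ccl3 and Ccl4 lie on opposite strands with 13228 bases between them, whereas the RefSeq span of Ccl4, which includes a predicted transcript, shares 755 bases with Ccl3. Which gene models were counted, and whether strand was used, is not stated for these values.

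Ptgs2 encodes cyclooxygenase-2, the inducible enzyme of prostaglandin synthesis. It was 28.11, 30.78 and 33.56 FPKM in A0 and 53.81, 94.26 and 68.64 FPKM in B0, with every B0 value higher. In A10 it was 38.59, 77.22 and 117.65 FPKM and in BA10 46.51, 43.95 and 120.46 FPKM, the groups overlapping widely. In A50 it was 38.58, 24.15 and 20.72 FPKM and in BA50 30.44, 28.24 and 49.88 FPKM, again with overlap. Over the 3 concentrations Ptgs2 differed by 0.46 ± 0.24 and did not pass the test (adjusted p from limma 0.147; exact permutation p = 0.128, two-sided).

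**Figure D2:**
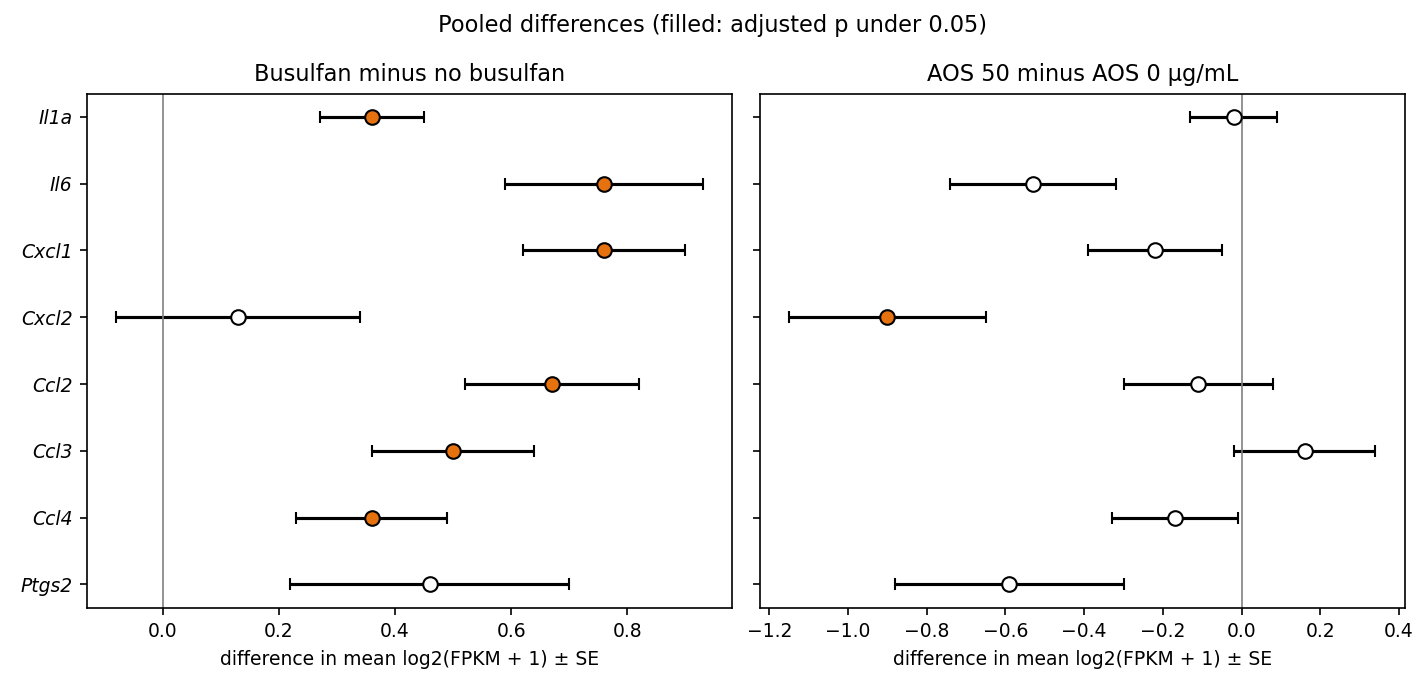
Difference in mean log2(FPKM + 1) ± SE of the 8 genes tested, for busulfan over the 3 AOS concentrations (left, 9 samples against 9) and for AOS at 50 µg/mL over both busulfan arms (right, 6 against 6). Filled points passed an adjusted p under 0.05, which were 6 genes to the right of 0 for busulfan and Cxcl2, to the left of 0, for AOS.

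Markers of other cells moved beside these differences to unequal degrees, and their part was not tested. Of the 12 macrophage markers, 1 was called higher with busulfan (Cd14, 0.39 ± 0.13, adjusted p from limma 0.0289), and the median of the list was 0.07. The complement genes C1qa and C1qc, typical of tissue macrophages, differed by 0.05 ± 0.32 and -0.08 ± 0.34. Of the 9 neutrophil markers, S100a9, Ly6g, Retnlg and Ngp were at or near 0 in both arms, and only 3 were tested. Of these 3, Camp and S100a8 were called higher (1.32 ± 0.37 and 0.65 ± 0.23) and 1 was not called. The summed level of the 9 markers, to which the genes near 0 added little, ranged from 11.6 to 24.8 FPKM without busulfan. With busulfan it ranged from 22.7 to 114 FPKM. Of 7 germ cell markers 4 were called lower, led by Dazl (-3.48 ± 0.20) and Sycp3 (-3.28 ± 0.10). Of the 5 Leydig cell markers tested 1 was called higher (Star, 0.75 ± 0.12), and of the 6 Sertoli cell markers 0. Of 5 endothelial markers 3 were called higher (Pecam1 and Cdh5, each 0.46 ± 0.15, and Tek, 0.23 ± 0.08), as were all 5 fat cell markers and 3 of 4 keratins, whereas 0 peritubular myoid, lymphocyte or mast cell markers were called. In a contrast of BA10 and BA50 with A10 and A50, 6 of the 8 inflammatory genes were called higher. This contrast left out B0, which held the highest fat cell and keratin values, and A0. The B0 and A0 samples stayed in the fit and so in its estimate of the spread. Without A10 replicate 3 and BA50 replicate 2, the samples with the least macrophage marker, 5 of 8 were called and Ccl4 was not (0.29, adjusted p from limma 0.0708). The share of all genes called under either setting is not given here. Over all 3 AOS concentrations and with all samples, 13.3% of all genes were called higher and 38.1% in either direction.

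B0 compared to A0 gives the busulfan difference in medium without AOS. Il6 was 2.10 times higher by the ratio of group means (23.7 ± 5.25 against 11.3 ± 1.29 FPKM, SD, n = 3) and Cxcl1 1.69 times higher (225 ± 33.2 against 133 ± 18.3 FPKM). Both were called (0.99 ± 0.29 with an adjusted p from limma of 0.0345, and 0.75 ± 0.23 with an adjusted p from limma of 0.0455). Thus 2 of 8 genes were called higher, beside 1.47% of all genes called higher and 13.8% called in either direction. Ptgs2 was 2.34 times higher by the ratio of means and was not called (1.17 ± 0.42, adjusted p from limma 0.081), although a fit of these 2 groups alone called it (0.0188). The groups did not overlap in 4 of the 8 genes (Il1a, Il6, Cxcl1 and Ptgs2), beside 33.2% of all genes. Each of these 4 had an exact permutation p of 0.1, which is the smallest that 3 samples against 3 can give. No inflammatory gene met the stricter limits, which 2.54% of all genes met.

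Both calls between B0 and A0 lay close to the threshold. That of Cxcl1 was lost whichever of the 6 libraries was left out (differences from 0.64 to 0.83, adjusted p from 0.0604 to 0.185). That of Il6 was lost without any A0 replicate or without B0 replicate 2 or 3 (differences from 0.83 to 1.06, adjusted p from 0.0553 to 0.129) and was kept without B0 replicate 1 (0.0368). All 5 fat cell markers and all 4 keratins were called higher in B0, with medians of 2.56 and 2.67, while 0 of 12 macrophage markers were called and their median was -0.06. Of the 7 germ cell markers 4 were called lower (median -1.14), as was the mast cell marker Tpsb2 (-1.23 ± 0.37, adjusted p from limma 0.036). The part of these other cells in the Il6 and Cxcl1 values was not tested.

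The second question was whether AOS in the medium alters the expression of these genes. At 50 µg/mL, over both busulfan arms, Cxcl2 was lower and was the only gene of the 8 to be called. Il6 and Ptgs2 were next in size, at -0.53 ± 0.21 and -0.59 ± 0.29, and did not pass the test (adjusted p from limma 0.0975 and 0.17). Of the 8 genes, 1 was called lower and 0 higher, beside 2.16% of all genes tested called lower and 5.7% called higher. The median difference was -0.20 for the 8 genes and -0.06 for all genes tested.

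Cxcl2 was 14.27, 15.38 and 11.95 FPKM in A0 and 7.93, 5.16 and 8.73 FPKM in A50. In the busulfan arm it was 15.48, 14.91 and 28.20 FPKM in B0 and 11.83, 6.15 and 11.11 FPKM in BA50. All 6 values at 50 µg/mL lay below all 6 values without AOS, in both arms. The difference was -0.90 ± 0.25 (adjusted p from limma 0.0469), and the exact permutation p of 0.005, with samples exchanged within each arm, is the smallest that 400 divisions can give (two-sided). The limma call was lost without any 1 of 10 of the 12 libraries, that is any A0 or A50 replicate, B0 replicate 1 or 3, or BA50 replicate 2 or 3 (adjusted p from 0.0604 to 0.135), with differences from -0.96 to -0.76. It was also lost with the replicate block (0.0515), without the filter (0.0649), and without A10 replicate 3 and BA50 replicate 2 (0.0689). Beside it, 0 of the 12 macrophage markers were called, with a median of -0.49 and a range from -0.82 (C1qa) to -0.25, all 4 keratins and 4 of 5 fat cell markers were called lower, and 2 of 5 endothelial markers (Pecam1 and Tek) were called lower. Of the 7 germ cell markers, 1 was called higher (Ddx4, 0.63 ± 0.17, adjusted p from limma 0.0439), and the spermatid genes Prm1 and Tnp1 had differences of 0.72 ± 0.23 and 0.60 ± 0.23 (adjusted p from limma 0.0616 and 0.0979). Their part in the Cxcl2 value was not tested.

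Il6 showed the same order in both arms without passing. Its mean was 7.84 ± 2.15 FPKM in A50 against 11.3 ± 1.29 in A0, and 15.5 ± 2.39 FPKM in BA50 against 23.7 ± 5.25 in B0 (SD, n = 3). The groups overlapped in the first pair and were apart in the second, and the exact permutation p over both arms was 0.015 (two-sided). For Ptgs2 the BA50 mean was 36.2 ± 11.9 FPKM against 72.2 ± 20.5 FPKM in B0, again without overlap, whereas A50 and A0 had means of 27.8 ± 9.48 and 30.8 ± 2.73 FPKM. Its exact permutation p over both arms was 0.04 (two-sided). Tnf, too low for the limma test, was 0.78, 0.91 and 0.89 FPKM in A0 against 0.22, 0.33 and 0.18 FPKM in A50, all 3 lower, and 0.64, 0.48 and 0.92 FPKM in B0 against 0.46, 0.29 and 0.58 FPKM in BA50, which overlapped (exact permutation p over both arms 0.01, two-sided). The number of reads behind values below 1 FPKM is unknown. These exact p-values were not adjusted for the 10 genes and the 8 comparisons in which they were computed.

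The other genes stayed nearer to their level without AOS. Ccl2 differed by -0.11 ± 0.19, Ccl3 by 0.16 ± 0.18, Ccl4 by -0.17 ± 0.16, Il1a by -0.02 ± 0.11 and Cxcl1 by -0.22 ± 0.17 between 50 and 0 µg/mL over both arms, each within 1.5 SE of 0. Ccl2 in particular had means of 185 ± 46.5, 190 ± 51.1 and 193 ± 48.8 FPKM in B0, BA10 and BA50 (SD, n = 3). The ranges of these groups overlapped, with the highest values of BA10 and BA50 above those of B0.

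Within each arm no comparison of AOS with its own control called any of the 8 genes. In A50 compared to A0, 0% of all genes passed the test and 15.6% had an unadjusted p under 0.05, and 1 of the 8 inflammatory genes did (Cxcl2, -0.87 ± 0.36, adjusted p from limma 0.289). Only Cxcl2 of the 8 was without overlap between A50 and A0, beside 40.8% of all genes. In BA50 compared to B0, 0.095% of all genes were called and 24.3% had an unadjusted p under 0.05, as did 2 of the 8 (Cxcl2, -0.93 ± 0.36, and Ptgs2, -0.99 ± 0.42, adjusted p from limma 0.147 and 0.171). The groups were apart in 3 of the 8 (Il6, Cxcl2 and Ptgs2, all lower in BA50), beside 24.6% of all genes. A50 and A0, and BA50 and B0, contribute to the pooled comparison, so these values are not independent of it.

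At 10 µg/mL the pattern was uneven. No gene was called over both arms, in A10 compared to A0 or in BA10 compared to B0 (0%, 0% and 0.0253% of all genes), and the shares with an unadjusted p under 0.05 were 16.8%, 15.2% and 5.05% of all genes. Of the 8 inflammatory genes these unadjusted counts were 0, 1 and 0. The 1 was Ptgs2, which was higher in all 3 A10 samples than in any A0 sample (77.8 ± 39.5 against 30.8 ± 2.73 FPKM, SD, n = 3) with a difference of 1.17 ± 0.42 (adjusted p from limma 0.322). A10 replicate 1 (38.59 FPKM) lay close to the A0 samples, and A10 replicate 3, the library that stood furthest from its group, had the highest value. Ptgs2 was the only 1 of the 8 without overlap between A10 and A0, beside 20.1% of all genes, and 0 of 8 were without overlap between BA10 and B0, beside 11.4%.

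Whether the AOS change differed between testes with and without busulfan was tested as an interaction. For 10 µg/mL, 0% of all genes passed the test and 3.97% had an unadjusted p under 0.05, among them 2 of the 8 inflammatory genes. Ptgs2 was one, with a difference between changes of -1.34 ± 0.59, and Ccl4 the other, with 0.88 ± 0.32 (adjusted p from limma 0.91 for both). Ccl4 had means of 6.54 ± 1.75 and 4.57 ± 1.53 FPKM in A0 and A10, and of 6.69 ± 1.62 and 9.32 ± 2.02 FPKM in B0 and BA10 (SD, n = 3). For 50 µg/mL, 0% passed and 6.28% had an unadjusted p under 0.05, with 0 of the 8 inflammatory genes among them. For Cxcl2 the changes at 50 µg/mL differed by -0.06 ± 0.51 between the arms, an SE too wide to call them equal.

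**Figure D3:**
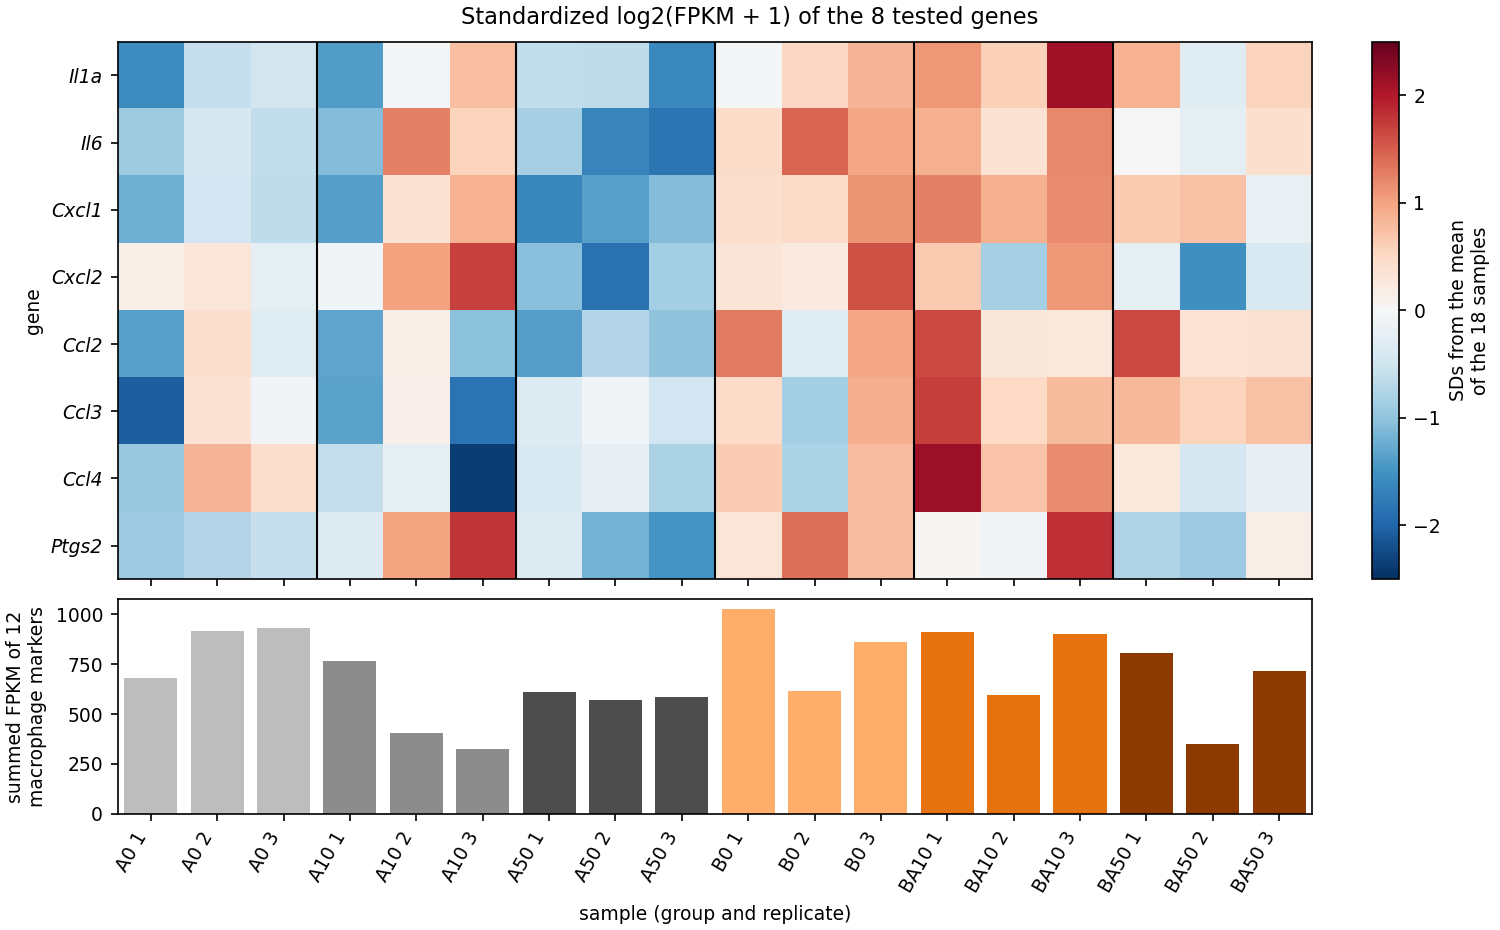
Top, log2(FPKM + 1) of the 8 tested genes in the 18 samples, each gene standardized to its mean and SD over the samples (red above, blue below); bottom, the summed FPKM of 12 macrophage markers in the same samples. In A10 replicate 3, Ptgs2 and Cxcl2 are high while Ccl3, Ccl4 and the marker sum (323 FPKM) are low.

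Within the arms, the genes did not all vary together. Il6 and Ptgs2 followed each other across the 9 samples of each arm (Pearson r of 0.88 without and 0.92 with busulfan, Spearman rho of 0.75 and 0.93), and r was 0.71 and 0.89 without the 2 samples furthest from the median of Il6. Cxcl2 followed Il6 as well (r of 0.84 and 0.76). Cxcl1 and Cxcl2 had r of 0.85 without busulfan and 0.43 with it. Without the 2 samples furthest from the median of Cxcl1, these were 0.55 and 0.41, so that the arms lay closer together. Ccl3 and Ccl4 had r of 0.80 in each arm (Spearman rho of 0.92 without and 0.67 with busulfan). Without the 2 samples furthest from the median of Ccl3, r was 0.70 and 0.21. In the busulfan arm the size of r thus depended on those samples, although leaving them out also narrows the range of Ccl3. Between Ptgs2 and Ccl3, r was -0.26 and -0.32, and 0.11 and 0.38 without the 2 samples furthest from the median of Ccl3, so that its sign rested on those samples. These correlations are descriptions over 28 pairs of genes, and the 9 samples of an arm share 3 AOS groups and the scaling of each library.

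**Figure D4:**
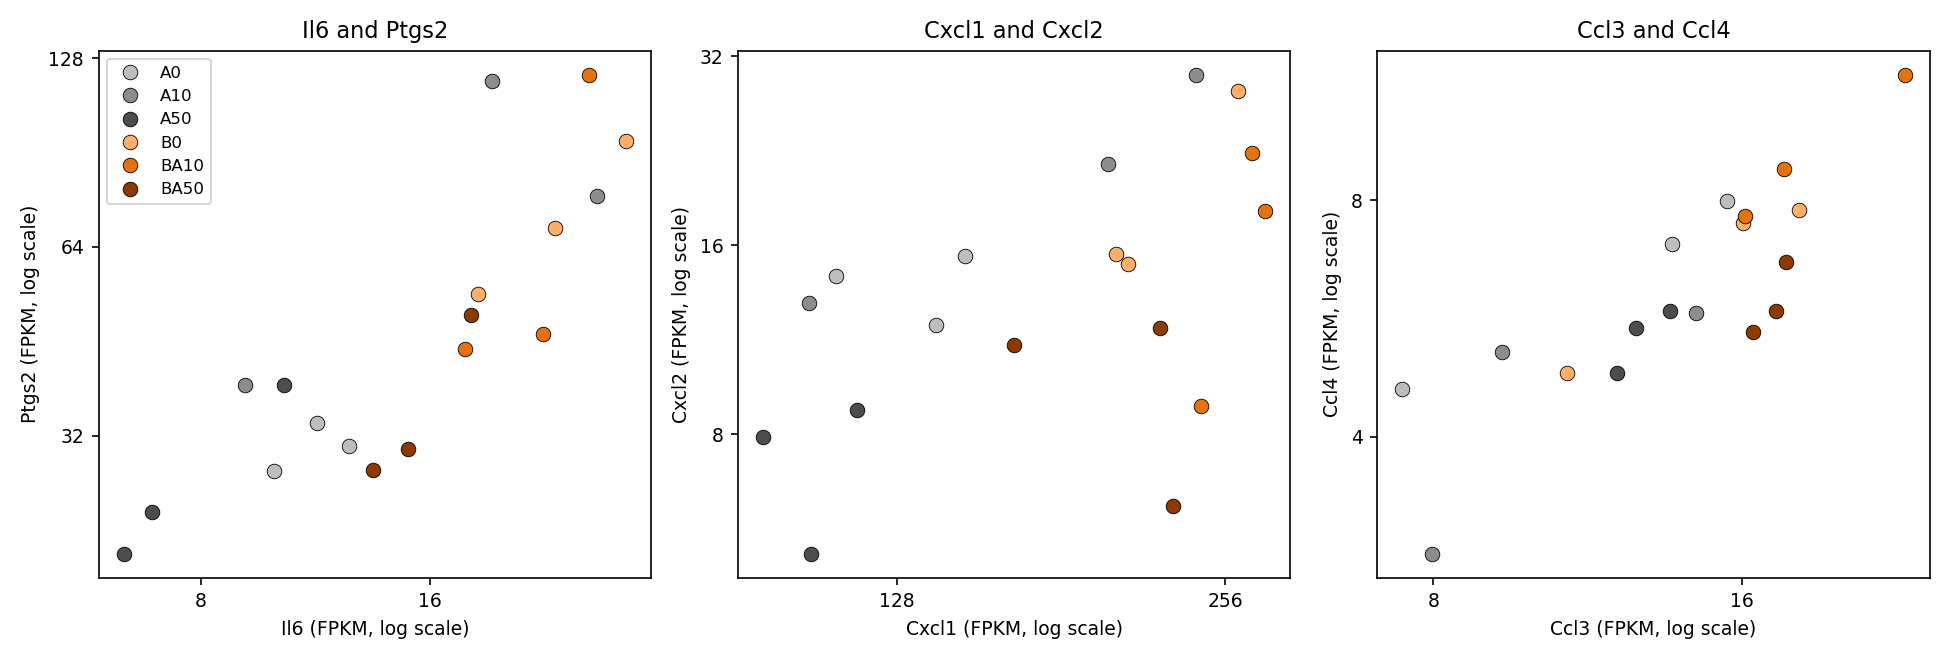
FPKM of Il6 against Ptgs2, Cxcl1 against Cxcl2, and Ccl3 against Ccl4 in the 18 samples, on log axes, with 1 point per sample and gray for no busulfan, orange to brown for busulfan. For Cxcl1 and Cxcl2 the busulfan points lie to the right, at higher Cxcl1, while their Cxcl2 values cover nearly the same range as the gray points.

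In A10 replicate 3, Ccl3 and Ccl4 lay apart from Cxcl2 and Ptgs2. This sample had the highest Cxcl2 value of all 18 samples (29.90 FPKM) and the highest Ptgs2 value without busulfan (117.65 FPKM), the lowest Ccl4 value (2.84 FPKM) and the lowest macrophage marker sum (323 FPKM). In BA50 replicate 2, with a marker sum of 352 FPKM, Ccl2, Ccl3 and Ccl4 were 163.66, 16.39 and 5.44 FPKM, close to those of BA50 replicate 3. The same sample had the lowest Il1a (4.47 FPKM), Il6 (13.47 FPKM), Cxcl2 (6.15 FPKM) and Ptgs2 (28.24 FPKM) values of the 9 busulfan samples. Whether the marker content sets any of these values was not tested.

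The mean standardized profile of the 8 genes was most alike, over the 18 samples, to Cald1 (Pearson r = 0.917), which encodes the actin-binding protein caldesmon, and to Bdkrb2 (0.916), the bradykinin B2 receptor. It was followed by Fgf7 (0.911), a growth factor of stromal cells, Zeb2 (0.895), Pla2g4a (0.892), Msn (0.885), Runx1 (0.885) and Zc3h12a (0.885). Pla2g4a encodes the cytosolic phospholipase that frees arachidonic acid for cyclooxygenases, and Zc3h12a the ribonuclease regnase-1, which degrades mRNAs such as that of Il6. These r values mix the busulfan difference with the variation inside the arms. Within them, Bdkrb2 had r of 0.95 without and 0.68 with busulfan, and Zeb2 0.62 and 0.95.

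The receptors for these ligands were present to very different degrees. Il1r1, the signaling receptor of interleukin-1, averaged 18.6 ± 4.73 FPKM without and 21.9 ± 4.55 FPKM with busulfan (SD, n = 9), and its partner Il1rap 6.48 and 7.67 FPKM. The antagonist Il1rn averaged 8.65 and 9.66 FPKM. None of these 3 passed the test for busulfan (adjusted p from limma 0.198, 0.146 and 0.327). Of the 9 genes tested in the interleukin-1 list, 1 was called higher, Il33 (0.58 ± 0.21), an alarm cytokine kept in nuclei, and 1 lower, Il18 (-0.23 ± 0.08). This stands beside 13.3% of all genes called higher with busulfan and 38.1% called in either direction. At 50 µg/mL AOS, Il18bp, the decoy that binds interleukin-18, was the 1 gene called lower (-0.70 ± 0.20, adjusted p from limma 0.0479), beside 2.16% of all genes.

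In the interleukin-6 family, 4 of 12 genes tested were called higher with busulfan and 0 lower. Of all genes tested, 13.3% were called higher and 38.1% in either direction. Il11 (0.75 ± 0.20) and Lif (0.53 ± 0.17) are cytokines that signal through the same co-receptor as interleukin-6, and Stat3 (0.28 ± 0.07) and Jak1 (0.21 ± 0.07) carry that signal. The receptor Il6ra (3.65 and 4.10 FPKM without and with busulfan) and the co-receptor Il6st (36.2 and 39.2 FPKM) did not pass (adjusted p from limma 0.308 and 0.514). Of 9 genes of TNF receptors and adaptors, 5 were called higher and 0 lower. Both receptors were among them, Tnfrsf1a at 0.46 ± 0.12 (means of 54.8 FPKM without and 74.2 FPKM with busulfan) and Tnfrsf1b at 0.53 ± 0.11 (13.5 and 19.9 FPKM). The adaptor genes Tradd (0.27 ± 0.09) and Ripk1 (0.26 ± 0.09) and the inhibitor gene Tnip1 (0.38 ± 0.09) were the other 3, while the ligand gene Tnf stayed below 1.3 FPKM.

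The receptor for Cxcl1 and Cxcl2, Cxcr2, was near 0 (0.194 and 0.186 FPKM), as was the Ccl2 receptor Ccr2 (0.227 and 0.0778 FPKM). Ccr1, a receptor of Ccl3, averaged 8.83 FPKM without busulfan and 10.5 FPKM with it and did not pass (adjusted p from limma 0.16). Of the 7 chemokine receptors tested 1 was called higher (Cxcr4, 0.35 ± 0.13). Among 20 other chemokines, 5 were called higher and 2 lower with busulfan, beside 13.3% of all genes called higher and 38.1% in either direction. Those higher were Cxcl5 (1.06 ± 0.34), Pf4 (0.69 ± 0.20), Ccl6 (0.56 ± 0.15), Ccl9 (0.50 ± 0.17) and Ccl7 (0.47 ± 0.13), and those lower Ccl25 (-0.53 ± 0.06) and Ccl28 (-0.31 ± 0.10). Ccl7 is a close relative of Ccl2, and Cxcl5 of Cxcl1. At 50 µg/mL AOS, 0 of these 20 were called, beside 2.16% of all genes called lower and 5.7% called higher.

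Ptgs2 works in a chain with phospholipases and prostaglandin synthases. Of the 14 other genes of this chain tested, 6 were called higher with busulfan and 1 lower. Among all genes tested, 13.3% were called higher and 38.1% in either direction. Slco2a1, the prostaglandin transporter, differed by 0.75 ± 0.10, Pla2g4a by 0.60 ± 0.10, the constitutive cyclooxygenase Ptgs1 by 0.58 ± 0.11 and the prostaglandin E synthase Ptges by 0.51 ± 0.08. Ptges2, a further synthase, differed by 0.38 ± 0.10 and the prostacyclin receptor Ptgir by 0.31 ± 0.10. The cytosolic synthase Ptges3 was lower (-0.45 ± 0.05). Of 16 genes of NF-κB subunits, inhibitors and mRNA decay, 6 were called higher and 1 lower, namely Zc3h12a (0.50 ± 0.10), Bcl3 (0.45 ± 0.11), Ikbkg (0.40 ± 0.09), Nfkb1 (0.33 ± 0.08), Nfkb2 (0.29 ± 0.10), Relb (0.25 ± 0.08) and, lower, Rel (-0.24 ± 0.09). The subunit gene Rela differed by -0.01 ± 0.06. In B0 compared to A0 alone, Slco2a1, Ptges and Pla2g4a were called higher and Ccl25 lower, and 0 other genes of these 7 lists were called. In that comparison 1.47% of all genes were called higher and 13.8% in either direction. For busulfan over the 3 AOS concentrations, the medians of these 7 lists were between 0.07 and 0.31. The median was 0.01 for all genes tested and 0.48 for the 8 inflammatory genes.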

How the data were processed

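Expression values of 18 cultured testis samples were taken from the table that the authors deposited, as FPKM with 2 decimals. Per the labels and the submitters' processing notes, HISAT, Bowtie2, RSEM and GRCm38.p5 were used, whereas the supplementary methods name SOAPaligner and RPKM. Read counts were not given, so no interval or detection limit was computed. Groups and replicate numbers came from the sample labels. Symbols were found from the NCBI gene numbers in the RefSeq gene table.

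A gene entered the test if 3 or more samples reached 1 FPKM. The fit was made with limma 3.58.1 under R 4.3.3 (lmFit, then eBayes with trend), taking log2(FPKM + 1) and 1 coefficient for each group, with 12 residual and 2.56 prior degrees of freedom, and Benjamini-Hochberg adjustment over all genes tested. A change on this scale understates that of genes with low values. Single genes were tested with exact two-sided permutation tests. The fit was tested on simulated data: of 200 genes among 15790 changed by a log2 of 1, 127 were called in BA50 compared to B0 and 181 for busulfan over the 3 AOS concentrations, with 8 and 10 false calls. The simulated noise was normal and independent between genes and samples, and the remaining genes were left unchanged. These figures hold for that setting and may not carry over to the measured samples. The other steps ran in Python 3.11.15 (SciPy 1.17.1, NumPy 2.4.6, matplotlib 3.10.9, pandas 2.3.3).

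The deviations of same-numbered samples from their group means correlated between -0.429 and 0.562. In 1 of 5 comparisons, BA50 with B0, every pair was over 0.1 (0.562, 0.422 and 0.138), so a paired fit was added there. The pairing comes from the replicate numbers of the labels. The alternatives were a pseudocount of 0.1, quantile normalization, no filter, a filter at a mean of 5 FPKM, no trend in eBayes, a fit of the compared groups only, the replicate block, stricter limits and each library left out. A busulfan contrast without B0 and A0 was chosen after seeing the data, and it used the fit of all 18 samples. The fit without A10 replicate 3 and BA50 replicate 2 and the paired fit of B0 and BA50 alone were also chosen then. The genes, the lists and the rule for the genes named (all 10 members, list genes that were called, fixed receptors and the 2 largest changes per list) were chosen with earlier results of these data known. Not every called gene of the marker lists is named, and 1 further listed gene is not reported here. The series design text gives AOS in mg/kg, while the labels give µg/mL, which is used here.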

Additional observations from a re-analysis of the deposited data

How the results depend on the processing

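Of 1374 values of single genes under the alternatives, 1249 kept their direction and their side of the threshold, 40 lost the call, 1 gained it (Ptgs2 in B0 compared to A0, in a fit of these groups only) and 84 changed sign without a call on either side. For busulfan over the 3 AOS concentrations, the count of called genes (6 of 8) was 5 or 6 under every alternative and each library left out, except 0 under the stricter limits. With the replicate block it was 5, since Ccl4 had an adjusted p from limma of 0.06. For B0 compared to A0 the count (2) was 1 without the filter, 0 under the stricter limits, and 0 to 1 when single libraries were left out. For AOS at 50 µg/mL over both arms the count (1) was 0 without the filter, 0 with the replicate block (Cxcl2, -0.90, adjusted p from limma 0.0515), 0 without A10 replicate 3 and BA50 replicate 2 together, 0 under the stricter limits, and 0 to 1 when single libraries were left out. The paired fit of BA50 and B0 alone called 0 of 8, as without pairing, and the replicate block changed no other call. Leaving out a library also removes samples from the fit. Depth is unknown, so the values of Il1b and Tnf cannot be given a counting error, and changes of low genes are understated by the pseudocount.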
